A study of Mus musculus with 12 samples.

Results

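The 10 genes followed here are commonly read as an account of canonical WNT signalling, and their RNA was measured in mouse embryonic stem cells (ESCs) and epiblast-like cells (EpiLCs) with and without repression of pyruvate cycling enzymes. They were taken by gene symbol and are the ligands *Wnt3* and *Wnt8a*, β-catenin itself (*Ctnnb1*), the DNA-binding partners *Tcf7l1* and *Tcf7*, the feedback inhibitors *Axin2*, *Nkd1* and *Notum*, and the transcription factor targets *Sp5* and *Cdx1*. All 10 are among the 57180 genes quantified and among the 25446 that were tested. RNA was sequenced from 12 libraries of the E14-DOX-CRISPRi line, which derives from 1 clone of male mouse E14 ESCs and carries a CRISPR interference system that doxycycline (DOX) induces. Neg cells hold 4 scramble guides as the control, and 3×KD cells hold guides to the pyruvate carboxylase gene *Pcx* and the malic enzyme genes *Me1* and *Me2*. The 4 groups are Neg ESCs, 3×KD ESCs, Neg EpiLCs and 3×KD EpiLCs, the EpiLCs at day 2, with n = 3 libraries apiece. The labels do not name DOX; the methods give DMSO or DOX for these cultures, and a figure legend of the study gives DOX for the RNA sequencing.

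Canonical WNT ligands act by stopping the destruction complex, in which AXIN, APC and the kinase GSK3 mark β-catenin for degradation. Stabilized β-catenin enters the nucleus and binds TCF/LEF proteins, where it switches on targets such as *Axin2* and *Sp5* and relieves the repression that TCF7L1 holds over naive pluripotency genes. Naive ESCs depend on this relief, and it is usually supplied by a GSK3 inhibitor. Here the ESCs were kept in N2B27 with 2iLIF (the GSK3 inhibitor CT99021, a MEK inhibitor and LIF). The EpiLCs were in N2B27 with FAX (Fgf2, Activin A and XAV939, a tankyrase inhibitor that stabilizes AXIN and so lowers WNT signalling). The 3×KD and Neg lines were therefore compared within one medium, whereas in EpiLCs against ESCs the cell state, the loss of the GSK3 inhibitor and the addition of XAV939 cannot be told apart. Neg and 3×KD are lines transfected and selected with different guides, and no group labelled as uninduced is among the samples. Repression of the targets and other differences between the lines thus cannot be told apart, and the 3×KD effect below means the difference between the lines.

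Totals per library lay between 11221023 and 19652197 estimated counts. The enzymes targeted in 3×KD were lower there in both states: *Pcx* had log2 fold changes of −1.14 and −1.05 in ESCs and EpiLCs, *Me1* of −0.89 and −1.05, and *Me2* of −0.95 and −0.98. Levels are given as CPM (counts scaled to the effective library size after TMM normalization) unless stated. A gene is called where the edgeR quasi-likelihood test gave an adjusted p below 0.01, by Benjamini-Hochberg over the genes tested, and the log2 fold change was above 0.58 in size, the limits of the study's own methods. The study states in general that its experiments were at least biological triplicates, while the labels do not say whether the 3 libraries of a group came from separate cultures, so p-values measure the spread between these libraries. In bulk RNA, fewer cells expressing a gene and less of its RNA per cell cannot be told apart.

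The 250 bases upstream of the RefSeq start site were searched for CTTTGA, the core that TCF/LEF proteins bind, on both strands. RefSeq promoter windows (table build GRCm38.p6, placed here on GRCm39 by exact match) were at hand for 7 of the 10 genes, in 9 windows; *Wnt8a*, *Cdx1* and *Notum* were not matched. A match was present in 1 of the 9 windows, that of *Sp5*, beside 13.83% of the 32851 windows in the table. *Sp5* held 2 matches, beside 1.37% of all windows with 2 or more, one ending 199 and the other 99 bases before the start site, both on the strand of the gene. Its window is shown with those of *Axin2* and *Nkd1*, since *Sp5* and *Axin2* fell and *Nkd1* rose in 3×KD ESCs. Capitals mark the matches, and all 3 genes lie on the plus strand. The *Sp5* window (chr2:70305017-70305266) ends where the annotated gene begins, and the antisense lncRNA gene *Gm75094* is annotated across it. The *Axin2* window reaches into the first exon, so it is printed up to that exon (chr11:108810925-108811168), 244 of the 250 bases searched. That of *Nkd1* (chr8:89254011-89254260) lies inside the annotated gene in no exon, because a longer transcript starts upstream. It lies just before the start of Nkd1-202. This transcript took 10.75 ± 5.63% of *Nkd1* TPM in Neg ESCs and 10.25 ± 6.29% in 3×KD ESCs. The window is thus not that of the transcripts that carried most of the gene's TPM. The search says nothing of sites elsewhere in these genes, and no factor binding was measured.
Sp5: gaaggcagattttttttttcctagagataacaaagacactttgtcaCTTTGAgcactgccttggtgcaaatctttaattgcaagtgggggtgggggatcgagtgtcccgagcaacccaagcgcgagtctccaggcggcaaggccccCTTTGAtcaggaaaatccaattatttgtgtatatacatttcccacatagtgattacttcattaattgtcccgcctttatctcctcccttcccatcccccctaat
Axin2: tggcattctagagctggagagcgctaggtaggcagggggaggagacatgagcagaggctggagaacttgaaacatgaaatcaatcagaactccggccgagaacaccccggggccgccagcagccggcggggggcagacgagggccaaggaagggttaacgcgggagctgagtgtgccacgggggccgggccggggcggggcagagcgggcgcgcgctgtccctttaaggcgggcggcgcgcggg
Nkd1: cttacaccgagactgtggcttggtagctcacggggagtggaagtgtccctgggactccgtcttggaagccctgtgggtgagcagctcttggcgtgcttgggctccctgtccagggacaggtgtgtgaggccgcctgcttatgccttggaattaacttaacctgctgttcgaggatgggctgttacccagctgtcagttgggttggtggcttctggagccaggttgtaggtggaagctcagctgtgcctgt

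Per transcript length, *Ctnnb1* was by far the most abundant of the 10, at 293 ± 77.6 TPM in Neg ESCs and between 270 and 376 TPM as means of the other groups (SD, n = 3 throughout). *Tcf7l1* followed in Neg ESCs at 46.4 ± 9.80 TPM, above *Axin2* at 23.3 ± 3.17 and *Tcf7* at 21.9 ± 3.52, whose libraries overlapped. *Notum* (7.59 ± 1.83), *Sp5* (6.71 ± 1.00) and *Cdx1* (5.60 ± 1.16 TPM) formed a next tier in which each overlapped its neighbour, and *Nkd1* stood at 1.92 ± 0.306 TPM. The ligands were lowest, at 0.274 ± 0.104 TPM for *Wnt8a* and 0.0491 ± 0.0376 for *Wnt3*. The order was different in the EpiLC groups. There *Sp5* was the lowest of the 10 in both lines, and in 3×KD EpiLCs *Tcf7* (34.8 ± 7.65 TPM) stood above *Tcf7l1* (20.5 ± 4.55 TPM) with no overlap between libraries, the reverse of their order in the other 3 groups.

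**Figure D1:**
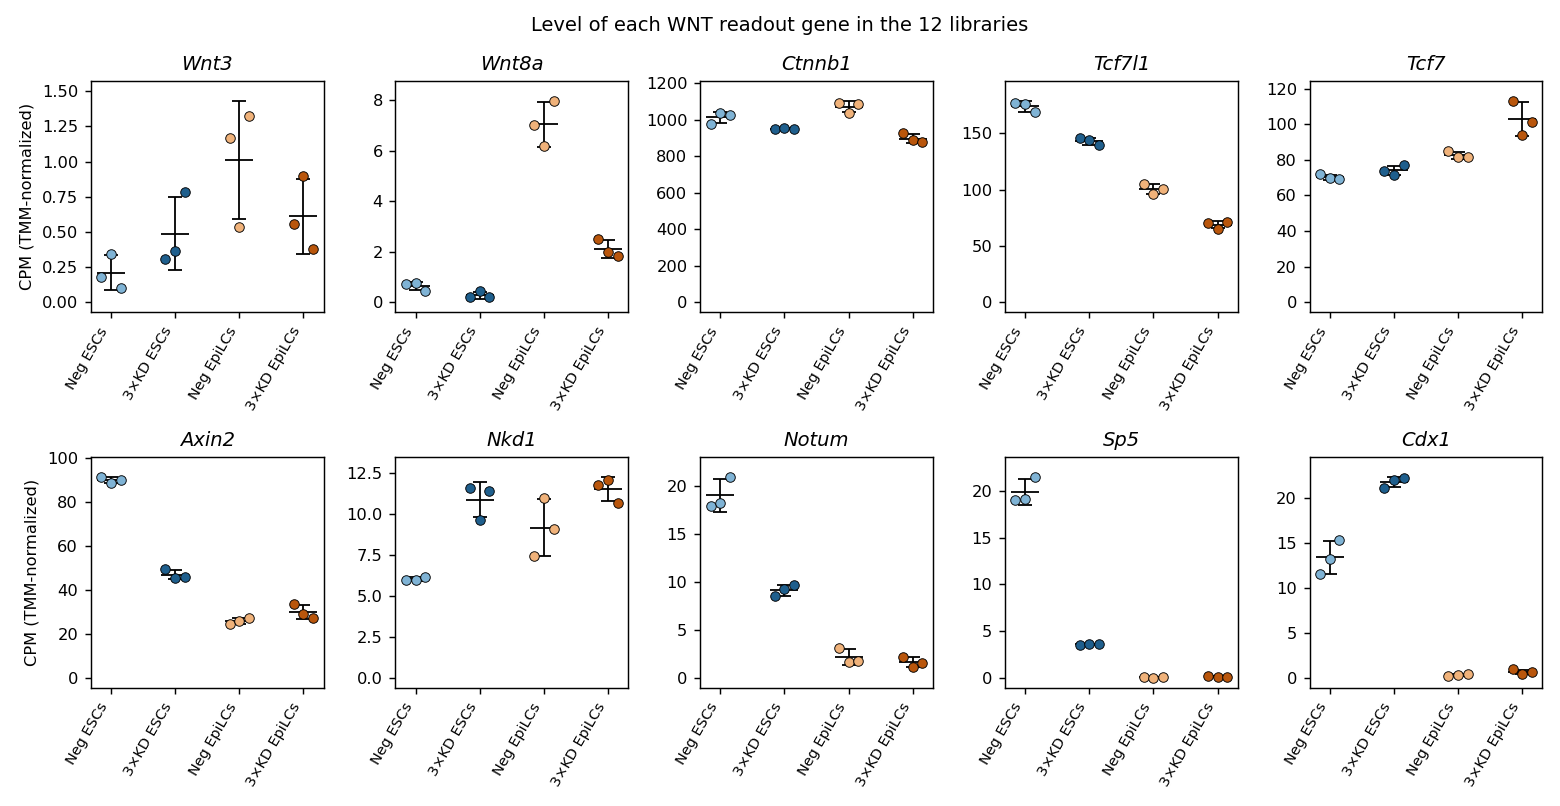
CPM of each of the 10 genes in the 12 libraries, in 1 panel per gene with its own linear axis that includes 0. Points are libraries, horizontal bars group means and whiskers 1 SD (n = 3); *Axin2*, *Notum*, *Sp5* and *Cdx1* are highest in ESCs, *Wnt8a* in Neg EpiLCs, and *Tcf7l1* is lower in each successive group from Neg ESCs to 3×KD EpiLCs.

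In ESCs, with the GSK3 inhibitor present in both lines, the readouts of WNT signalling moved apart in 3×KD. The targets and inhibitors *Sp5*, *Notum* and *Axin2* fell and the inhibitor *Nkd1* and the target *Cdx1* rose, while the genes for β-catenin, the TCF factors and the ligands were not called. These 5 of 10 called genes stand beside 15.3% of all genes tested, the 3 that fell beside 6.76% called lower and the 2 that rose beside 8.50% called higher. The median log2 fold change of the 10 was −0.185, against 0.03 over all genes tested. Without the fold limit, 6 of the 10 had an edgeR adjusted p under 0.01, against 31.6% of all genes.

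*Sp5*, a zinc finger factor that is a direct β-catenin target, showed the widest gap in ESCs. It stood at 19.1, 19.1 and 21.5 CPM in the Neg ESC libraries and at 3.50, 3.60 and 3.59 in the 3×KD ESC libraries. The groups were far apart, by 5.58-fold (log2 fold change −2.48, standard error 0.14, edgeR adjusted p = 5.2e-10). The call held in all 22 alternatives tried, with values between −2.51 and −2.42. In EpiLCs *Sp5* was all but absent, with 1, 0 and 2 counts in the Neg libraries and 3, 2 and 2 in the 3×KD libraries. Since no EpiLC library had more than 3 counts, no fold between the lines is given in that state.

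*Axin2*, a scaffold of the destruction complex that is itself induced by β-catenin, stood at 91.5, 88.6 and 90.1 CPM in Neg ESCs. In 3×KD ESCs it read 49.3, 45.4 and 46.1 CPM, below every Neg library and 1.92-fold lower (log2 fold change −0.94, standard error 0.062, edgeR adjusted p = 3.3e-09). In EpiLCs the order of the lines was the opposite, with 24.5, 26.0 and 27.1 CPM in Neg and 33.5, 29.0 and 27.2 in 3×KD. There the groups just failed to overlap, and the difference of 0.21 on the log2 scale was not called (standard error 0.069, edgeR adjusted p = 0.024).

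*Notum*, which codes for a secreted enzyme that inactivates WNT ligands, was 17.9, 18.3 and 21.0 CPM in Neg ESCs against 8.54, 9.27 and 9.67 in 3×KD ESCs. It was thus 2.09-fold lower without overlap (log2 fold change −1.06, standard error 0.16, edgeR adjusted p = 5.3e-05). With offsets for the mean transcript length of each gene the value was −0.77 and was no longer called. In EpiLCs it was low in both lines, at 3.14, 1.61 and 1.77 CPM in Neg and 2.17, 1.15 and 1.56 in 3×KD, with overlapping groups and a difference of −0.42 that was not called (edgeR adjusted p = 0.22).

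*Nkd1*, which binds Dishevelled and restrains the pathway inside the cell, went the other way in ESCs. The Neg libraries held 5.94, 5.99 and 6.17 CPM and the 3×KD libraries 11.6, 9.63 and 11.4, a rise of 1.80-fold (log2 fold change 0.85, standard error 0.13, edgeR adjusted p = 4.9e-05) that was called in all 22 alternatives. In EpiLCs it read 7.45, 10.9 and 9.10 CPM in Neg and 11.8, 12.1 and 10.7 in 3×KD. These groups overlapped, and the difference of 0.33 was not called (edgeR adjusted p = 0.043).

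*Cdx1*, a caudal-type homeobox factor that WNT signals induce in the posterior embryo, was 11.6, 13.3 and 15.4 CPM in Neg ESCs and 21.2, 22.0 and 22.3 in 3×KD ESCs. It rose 1.62-fold (log2 fold change 0.69, standard error 0.13, edgeR adjusted p = 2.5e-04), a call lost with transcript-length offsets, where the value was 0.71 with an adjusted p of 0.014. In EpiLCs it fell to a few counts per library, at 0.185, 0.269 and 0.379 CPM in Neg and 0.931, 0.384 and 0.624 in 3×KD. The 3×KD libraries were again the higher ones, by 1.20 on the log2 scale, but from 13 and 31 counts over each group this was not called (standard error 0.38, edgeR adjusted p = 0.021). Without the second 3×KD EpiLC library, the lowest of its group, the difference was 1.46 and was called.

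**Figure D2:**
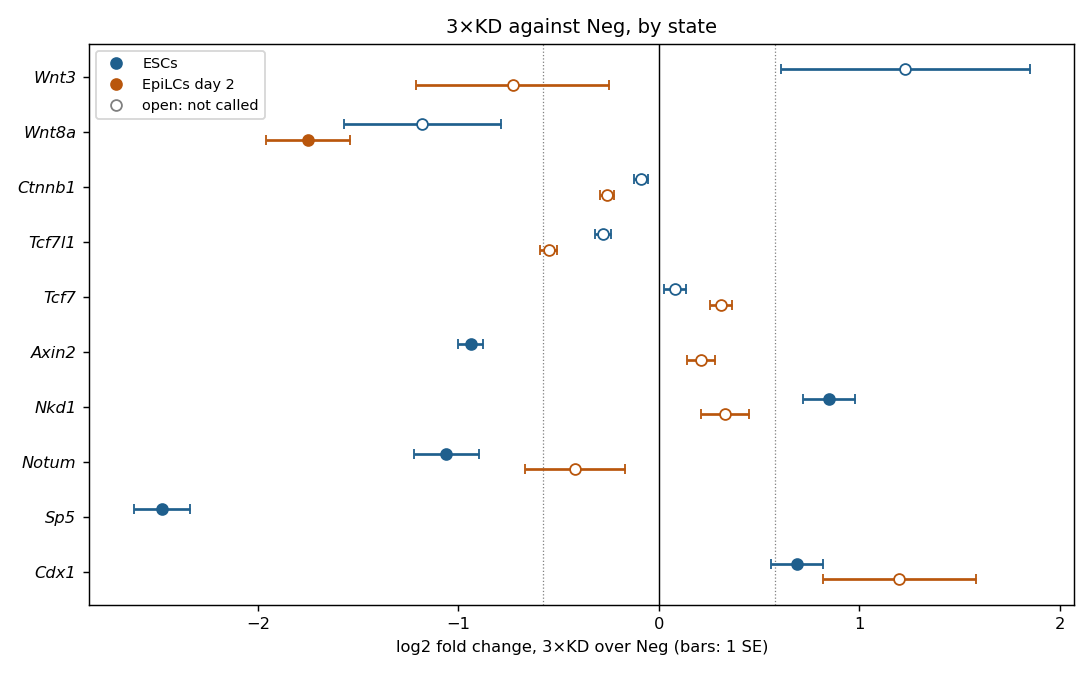
Log2 fold change of 3×KD over Neg in ESCs and in EpiLCs day 2 for each gene, with bars of 1 standard error from edgeR; filled points are called, open points are not, and dotted lines mark a log2 fold change of 0.58 in size. In ESCs *Axin2*, *Notum* and *Sp5* lie to the left and *Nkd1* and *Cdx1* to the right, in EpiLCs *Wnt8a* is the gene called, and *Sp5* has no EpiLC point because no EpiLC library had more than 3 counts.

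In EpiLCs day 2, *Wnt8a* alone of the 10 was called between the lines, and it fell. This is 1 of 10 beside 13.2% of all genes called, and beside 5.35% called lower. None of the 10 was called higher by edgeR, beside 7.88% of all genes, and 7 of the 10 had an unadjusted p under 0.05, beside 44.7%. An adjusted p under 0.01 without the fold limit was reached by 4 of the 10 (*Wnt8a*, *Tcf7l1*, *Tcf7* and *Ctnnb1*), beside 29.9% of all genes.

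*Wnt8a*, a ligand of the early epiblast and primitive streak, was 7.02, 6.18 and 7.97 CPM in Neg EpiLCs and 2.48, 1.98 and 1.81 in 3×KD EpiLCs. Every 3×KD library was below every Neg library, by 3.36-fold on the mean (log2 fold change −1.75, standard error 0.21, edgeR adjusted p = 3.5e-06), and the call held in all 22 alternatives. In ESCs the ligand was close to the limit of detection, at 0.709, 0.757 and 0.459 CPM in Neg and 0.184, 0.427 and 0.196 in 3×KD, from 28 and 13 counts over each group. The difference there was −1.18, with groups that did not overlap, and was not called (standard error 0.39, edgeR adjusted p = 0.030).

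*Wnt3*, the ligand that starts the primitive streak in the embryo, was the scarcest of the 10 by mean level. Its counts were 2, 5 and 2 in Neg ESCs, 5, 6 and 12 in 3×KD ESCs, 19, 8 and 21 in Neg EpiLCs and 9, 14 and 6 in 3×KD EpiLCs. The lines overlapped in both states and neither difference was called (1.23 with standard error 0.62 in ESCs and −0.73 with standard error 0.48 in EpiLCs).

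*Ctnnb1* carries the signal through its protein, which is controlled by degradation, and its RNA varied little. It was 979, 1035 and 1026 CPM in Neg ESCs, 952, 954 and 951 in 3×KD ESCs, 1094, 1038 and 1085 in Neg EpiLCs and 925, 890 and 877 in 3×KD EpiLCs. The 3×KD libraries were the lower ones in both states, by −0.09 in ESCs (standard error 0.034, edgeR adjusted p = 0.047) and −0.26 in EpiLCs (standard error 0.034, edgeR adjusted p = 1.2e-05), each within the fold limit. With transcript-length offsets the value in ESCs was 0.03.

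*Tcf7l1*, the factor that holds down naive genes when β-catenin is scarce, was 177, 176 and 169 CPM in Neg ESCs and 146, 144 and 140 in 3×KD ESCs. In EpiLCs it read 105, 96.5 and 100.3 CPM in Neg and 70.2, 65.3 and 71.2 in 3×KD. No group overlapped another. The differences between lines were −0.28 in ESCs (standard error 0.040, edgeR adjusted p = 2.6e-05) and −0.55 in EpiLCs (standard error 0.043, edgeR adjusted p = 2.7e-08), both short of the fold limit.

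*Tcf7* codes for a partner that, in its β-catenin-binding form, acts as an activator. Its main transcripts Tcf7-201 and Tcf7-202 start at different sites, and counts per gene do not separate their products. *Tcf7* was 71.9, 69.6 and 69.3 CPM in Neg ESCs and 74.0, 71.7 and 77.0 in 3×KD ESCs, where the lines overlapped (0.08, standard error 0.056, edgeR adjusted p = 0.29). In EpiLCs it read 85.1, 81.5 and 81.7 CPM in Neg and 113, 94.1 and 102 in 3×KD. These groups did not overlap, and the difference of 0.31 was within the fold limit (standard error 0.054, edgeR adjusted p = 1.6e-04). In EpiLCs the TCF factors thus stood on opposite sides of 0, *Tcf7l1* lower and *Tcf7* higher in 3×KD, with neither called.

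The state dependence of the 3×KD effect was tested directly, as the effect in EpiLCs minus that in ESCs, with an adjusted p under 0.01 and no fold limit. It was called for 3 of the 10 genes, higher for *Sp5* and *Axin2*, beside 4.76% of all genes tested, and lower for *Tcf7l1*, beside 5.27%. For *Axin2* the difference of effects was 1.15 (standard error 0.092, edgeR adjusted p = 2.6e-07), between −0.94 in ESCs and 0.21 in EpiLCs, and it was called in all 21 alternatives. For *Tcf7l1* it was −0.27 (standard error 0.059, edgeR adjusted p = 0.0045), with 3×KD the lower line in both states, and 6 of the 21 alternatives lost it. For *Sp5* the fitted value was 3.59 (standard error 0.65, edgeR adjusted p = 0.0018), but its EpiLC side rests on 3 and 7 counts over each group, and the call was lost without the first 3×KD EpiLC library. *Notum* (0.64, edgeR adjusted p = 0.19), *Nkd1* (−0.51, edgeR adjusted p = 0.064) and *Wnt8a* (−0.57, edgeR adjusted p = 0.54) were not called, so their effects are not shown to differ between the states.

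From ESCs to EpiLCs, in the Neg line, the targets and feedback inhibitors apart from *Nkd1* fell and the ligands rose. Of the 10 genes, 5 fell (*Sp5*, *Cdx1*, *Notum*, *Axin2* and *Tcf7l1*) and 3 rose (*Wnt8a*, *Wnt3* and *Nkd1*), 8 of 10 beside 20.8% of all genes called, 11.0% lower and 9.78% higher. In the 3×KD line the same 5 genes fell and *Wnt8a* rose, 6 of 10 beside 18.7% called, 9.32% lower and 9.42% higher. Cell state and medium changed together here.

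*Sp5* went from 914 counts over the Neg ESC libraries to 3 over the Neg EpiLC libraries, a ratio per library total of 323 with an exact 95% counting interval of 110 to 1569. In the 3×KD line it went from 171 to 7 counts, a ratio of 23.7 (11.3 to 59.9). *Cdx1* was likewise 51.0 times higher in Neg ESCs than in Neg EpiLCs (29.6 to 96.2) and 32.8 times higher in the 3×KD line (22.9 to 48.5). The intervals cover counting error only, and they show that the EpiLC level of both targets was near the limit of these libraries.

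*Axin2* kept a clear level in EpiLCs, since its log2 fold change from ESCs was −1.80 in Neg (standard error 0.065, edgeR adjusted p = 5.9e-13) and −0.65 in 3×KD (standard error 0.066, edgeR adjusted p = 3.7e-07). The smaller 3×KD value was not called with upper-quartile factors (−0.58, just inside the fold limit), with transcript-length offsets (−0.52) or without the third 3×KD EpiLC library (−0.58). *Notum* fell by 3.12 in Neg (standard error 0.20) and by 2.48 in 3×KD (standard error 0.21) on the log2 scale. *Tcf7l1* fell by 0.79 (standard error 0.041) and by 1.05 (standard error 0.042). *Ctnnb1* (0.08 and −0.09) and *Tcf7* (0.24 and 0.47) were not called in either line.

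*Wnt8a* rose 11.2-fold in Neg (log2 fold change 3.48, standard error 0.25, edgeR adjusted p = 4.7e-09) and 7.54-fold in 3×KD (2.91, standard error 0.32, edgeR adjusted p = 9.0e-07). *Wnt3* rose in Neg, by 2.29 from 9 to 48 counts over each group (standard error 0.57, edgeR adjusted p = 0.0034), a call lost when the first or the third Neg library of either state was left out. In the 3×KD line it was 0.33 and not called (edgeR adjusted p = 0.67), and the difference between the lines was itself not called (edgeR adjusted p = 0.11). *Nkd1* rose by 0.60 in Neg (standard error 0.13, edgeR adjusted p = 0.0012), close to the fold limit, and this call was lost with library size alone (0.56) and without the second Neg EpiLC library (0.49). In the 3×KD line, whose ESC level was the higher, *Nkd1* was 0.08 and not called.

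**Figure D3:**
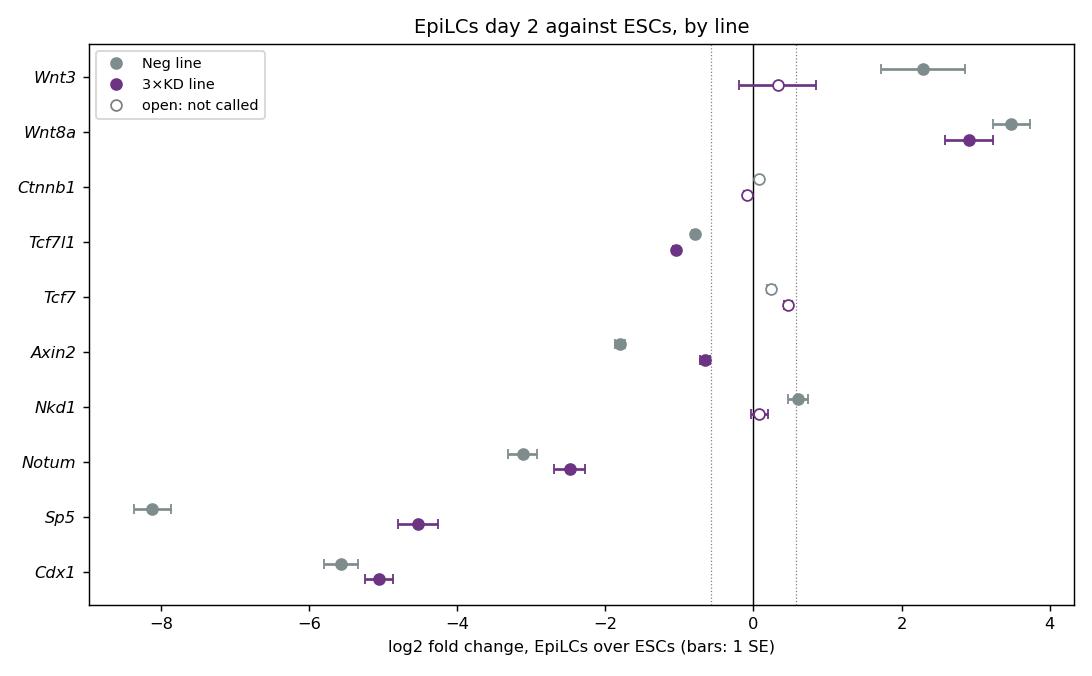
Log2 fold change of EpiLCs day 2 over ESCs in the Neg and the 3×KD line for each gene, with bars of 1 standard error from edgeR; filled points are called and dotted lines mark a log2 fold change of 0.58 in size. *Sp5* and *Cdx1* lie farthest to the left, on few EpiLC counts, and *Wnt8a* farthest to the right, in both lines.

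Other genes of the pathway were taken from 7 lists of 102 genes arranged by role, none of them one of the 10, and 99 were tested. Between the lines 24 were called in ESCs, of which 14 rose and 10 fell in 3×KD, beside 15.3% of all genes called, 8.50% higher and 6.76% lower, with a median log2 fold change of 0.07 beside 0.03 over all genes. An unadjusted p under 0.05, the measure given below where no gene of a list was called in a direction, was reached by 45.9% of all genes in ESCs and 44.7% in EpiLCs. In EpiLCs 21 were called, 13 of them higher, beside 13.2% of all genes called and 7.88% higher, with a median of 0.02 beside 0.03. For the difference of effects between the states 24 were called, 13 higher and 11 lower, beside 4.76% and 5.27% of all genes, and 7 with transcript-length offsets.

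Among genes that make and export WNT ligands, 3 of the 18 tested rose in both states, beside 8.50% of all genes called higher in ESCs and 7.88% in EpiLCs. None was called lower by edgeR or by DESeq2, and 5 of the 18 in ESCs and 4 in EpiLCs had an unadjusted p under 0.05 in either direction. The genes that rose were *Wls*, the carrier of WNT proteins to the surface (0.95 in ESCs and 1.30 in EpiLCs), *Porcn*, which adds their lipid (0.63 and 1.34), and the ligand *Wnt9a* (1.08 and 0.82). Of the 16 receptor genes, 5 rose and 3 fell in ESCs, beside 8.50% and 6.76% of all genes. *Fzd7* rose there by 0.76 and *Ptk7* by 0.77, while *Fzd5* fell by 0.78 and *Fzd10* by 0.68 on the log2 scale. In EpiLCs 2 of the 16 rose and 1 fell, beside 7.88% and 5.35% of all genes.

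Inhibitors other than the 3 above were mixed. *Dkk3* rose in both states (1.12 and 1.13) and so did *Sfrp2* (0.81 and 0.72). *Dkk1*, a secreted blocker of the LRP co-receptors and a known β-catenin target, was 1.42, 1.54 and 1.20 CPM in Neg EpiLCs and 0.124, 0.256 and 0.125 in 3×KD EpiLCs, a called fall of 2.99 on the log2 scale (standard error 0.42, edgeR adjusted p = 2.3e-05). In ESCs, with 4, 4 and 9 counts in Neg and 3, 3 and 2 in 3×KD, it was not called, and neither was the difference of effects between the states. *Dkk1* and *Cdx4* lie below a mean of 1 CPM and were chosen for naming after their values were seen.

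In the nucleus, *Lef1*, a TCF family member that was higher in EpiLCs than in ESCs, fell in 3×KD in both states (−0.63 in ESCs and −1.37 in EpiLCs). The fall was larger in EpiLCs (difference −0.74, standard error 0.072, edgeR adjusted p = 2.3e-06). With transcript-length offsets neither the ESC value nor the difference was called. The co-repressor *Tle4* fell by nearly the same amount in each (−1.03 and −1.05). *Tle5* rose in both (0.67 and 1.11). The co-repressors *Tle1* and *Tle3* were called higher in EpiLCs and for the difference of effects, the latter not with transcript-length offsets. Of the 11 genes of this list, 1 rose and 2 fell in ESCs, beside 8.50% and 6.76% of all genes. In EpiLCs 3 rose and 2 fell, beside 7.88% and 5.35%.

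Upstream of β-catenin, no R-spondin or receptor turnover gene of 9 was called in ESCs by edgeR or DESeq2, with 4 of the 9 at an unadjusted p under 0.05. In EpiLCs *Rnf43*, whose product clears Frizzled receptors from the surface, rose by 1.65 (standard error 0.33, edgeR adjusted p = 7.5e-04), a call lost with transcript-length offsets. Of the 16 genes of Dishevelled and the destruction complex, 2 rose in ESCs, beside 8.50% of all genes called higher. None was called lower by edgeR or DESeq2, with 11 of the 16 at an unadjusted p under 0.05. The casein kinase *Csnk1e* rose in both states (1.14 and 0.88), and its relative *Csnk1d*, at −0.31 in ESCs, fell by 0.59 in EpiLCs, close to the fold limit and not called with library size alone or with transcript-length offsets. *Gsk3b*, the gene of one of the kinases that CT99021 inhibits, was at 0.29 and 0.09 and not called. For the difference of effects between the states, 7 of the 16 were called lower (*Apc2*, *Tnks*, *Btrc*, *Csnk1d*, *Csnk1e*, *Tnks2* and *Gsk3b*) and *Dvl3* higher, beside 5.27% and 4.76% of all genes. These differences were between −0.31 and −0.20 apart from *Apc2* at −1.58, and none of the 16 was called lower with transcript-length offsets. *Gsk3b*, *Tnks2* and *Dvl3* were chosen for naming with their values seen. β-catenin also binds cadherins at cell junctions. Of 6 junction partners *Cdh1* alone was called between the lines, 0.63 higher in ESCs, beside 8.50% of all genes called higher. For the difference of effects 1 of the 6 was called higher and *Cdh1* lower, beside 4.76% and 5.27% of all genes.

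Further β-catenin targets numbered 9, all tested. In 3×KD ESCs 4 of them fell, beside 6.76% of all genes called lower, and none was called higher by edgeR or DESeq2 (6 of the 9 had an unadjusted p under 0.05 in either direction), with a median of −0.705, while 2 fell and 1 rose in EpiLCs, with a median of 0.181. Those that fell in ESCs were *Cdx2* (−2.50), *Cdx4* (−2.13), *Myc* (−2.10) and the cyclin *Ccnd1* (−2.01), of which *Cdx4*, from 30 and 7 counts over each group, was not called by DESeq2 or with transcript-length offsets. *Cdx2* went from 2.75, 2.62 and 3.21 CPM in Neg ESCs to 0.491, 0.427 and 0.588 in 3×KD ESCs, a fall in a caudal factor beside the rise in *Cdx1*. *Ccnd1* also fell in EpiLCs (−1.74), where *Myc* was 0.28 and not called. Many signals besides β-catenin control *Myc* and *Ccnd1*.

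From Neg ESCs to Neg EpiLCs, 38 of the 99 genes were called, 20 of them higher, beside 20.8% of all genes, and in the 3×KD line 29 were, 14 of them higher, beside 18.7%. *Lef1* and *Tcf7l1* moved in opposite directions, since *Lef1* rose by 3.59 in Neg and by 2.85 in 3×KD while *Tcf7l1* fell. *Tcf7l2*, named with its values seen, was also called higher in Neg and was not called in 3×KD. *Cdx2* fell with *Cdx1* in Neg (−3.14), but in 3×KD, where it was low in both states, it was −0.06 and not called. *Fzd10* fell in both lines (−2.69 and −1.75) and *Fzd7* rose in both (2.09 and 1.15).

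**Figure D4:**
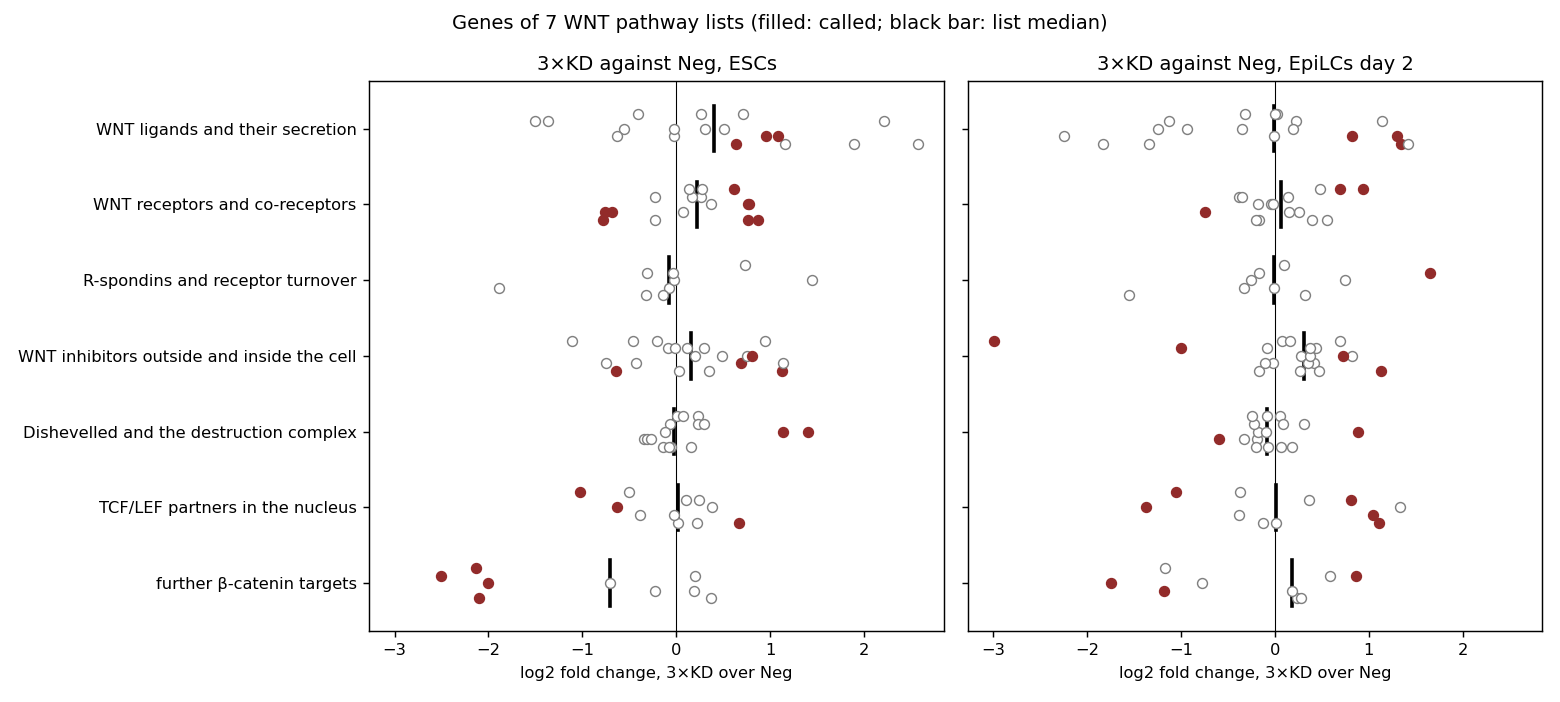
Log2 fold change of 3×KD over Neg for each tested gene of 7 WNT pathway lists, in ESCs (left) and EpiLCs day 2 (right); each point is a gene, filled where called, with vertical jitter that carries no value, and black bars are list medians. The list of further β-catenin targets has its median at −0.705 in ESCs and 0.181 in EpiLCs, and the other medians lie between −0.0822 and 0.405.

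Naive genes that TCF7L1 is known to repress were read beside *Tcf7l1*. All 5 (*Esrrb*, *Nanog*, *Tfcp2l1*, *Klf2* and *Nr5a2*) fell from ESCs to EpiLCs in both lines, beside 11.0% of all genes called lower in Neg and 9.32% in 3×KD. In 3×KD ESCs 2 of them fell (*Klf2* by 0.83 and *Nr5a2* by 1.30 on the log2 scale), beside 6.76% of all genes. In 3×KD EpiLCs 3 rose (*Nanog* 1.07, *Esrrb* 0.89 and *Tfcp2l1* 0.59), beside 7.88%. The difference of effects between the states was called higher for all 5, beside 4.76% of all genes, with a median of 0.95. *Nanog*, for example, was 33.9, 36.2 and 37.8 CPM in Neg EpiLCs and 72.9, 75.9 and 77.9 in 3×KD EpiLCs. Of 12 naive markers, which include *Esrrb*, *Nanog*, *Tfcp2l1* and *Klf2*, 10 were called higher for the same difference of effects, with a median of 0.876. The pattern was thus not confined to the 5 genes listed, since *Dppa3*, *Klf4*, *Zfp42*, *Tcl1*, *Tbx3* and *Klf5* shared it. Whether TCF7L1 also represses those markers was not examined. *Tcf7l1* itself was the lower in 3×KD in both states.

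Markers of cell states moved with these values, and their part in them was not tested. Summed over 12 naive markers, the libraries lay between 5725 and 5901 CPM in Neg ESCs, 4325 and 4398 in 3×KD ESCs, 502 and 523 in Neg EpiLCs and 598 and 618 in 3×KD EpiLCs. Formative markers (8 genes) summed to between 2984 and 3354 CPM in Neg EpiLCs and 1751 and 1800 in 3×KD EpiLCs. Of 9 primitive streak and mesoderm markers, cells in which *Wnt3*, *Wnt8a*, *Sp5* and *Cdx1* are also active, none was called between the lines by edgeR or DESeq2 in either state (1 of the 9 in each had an unadjusted p under 0.05), and they summed to between 22.0 and 34.1 CPM in all 12 libraries. The 7 trophoblast markers, *Cdx2* among them, summed to 78.9 to 91.0 CPM in 3×KD against 57.4 to 62.8 in Neg ESCs, and to 52.5 to 53.9 against 21.5 to 24.6 in EpiLCs. In 3×KD ESCs 3 of the 7 (*Krt18*, *Plet1* and *Krt8*) were called higher and *Cdx2* lower, beside 8.50% and 6.76% of all genes. In 3×KD EpiLCs 4 (*Krt8*, *Plet1*, *Tfap2c* and *Krt18*) were called higher and *Gata3* lower, beside 7.88% and 5.35%. None of the 7 was called lower in EpiLCs by DESeq2. The same shares stand beside the counts of the lists that follow. The 3 core pluripotency markers summed to between 1577 and 1594 CPM in Neg ESCs and 1358 and 1390 in 3×KD ESCs, with none called. In EpiLCs they summed to between 1385 and 1521 CPM in Neg and 1071 and 1107 in 3×KD, where *Sall4* was called lower. The 9 primitive endoderm markers summed to between 32.5 and 37.4 CPM in Neg EpiLCs and 26.8 and 28.9 in 3×KD EpiLCs, where 3 of them were called lower, and to between 23.1 and 26.5 in Neg ESCs and 32.7 and 35.6 in 3×KD ESCs, where 2 were called higher. The 5 neuroectoderm markers summed to between 118.5 and 122.6 CPM in Neg EpiLCs and 54.6 and 57.1 in 3×KD EpiLCs, where *Sox1* and *Nes* were called lower. In ESCs they summed to between 70.5 and 82.65 CPM in Neg and 80.4 and 83.1 in 3×KD. *Zic1* was called higher in 3×KD ESCs by edgeR but not by DESeq2. No marker of these lists was at 0 over a whole group.

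Across the 12 libraries the log2 levels (CPM plus 1) of *Sp5* followed those of *Axin2* (Pearson's r = 0.991) and *Notum* (r = 0.97), while *Nkd1* ran against all 3 (r between −0.72 and −0.68). These are descriptions over libraries that fall into 4 groups, and they largely restate the differences between groups. By the same measure over 15032 genes, *Plekhf2* was among the 3 genes most like both *Axin2* (r = 0.995) and *Sp5* (r = 0.998), *Abi1* was the most like *Tcf7l1* (r = 0.996), *Smarcd1* the most like *Wnt8a* (r = 0.997), *Ackr3* the most like *Cdx1* (r = 0.997) and *Xaf1* the most like *Notum* (r = 0.992). With Spearman's correlation 2 of the 27 genes so named were named again.

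Within genes, TPM was divided between transcripts as follows. *Tcf7* was split mainly between its transcripts Tcf7-201 (54.6 ± 2.19% in Neg ESCs and 54.4 ± 0.86% in 3×KD EpiLCs) and Tcf7-202 (43.4 ± 2.28% and 40.7 ± 0.72%). Its minor transcript Tcf7-203 took 1.74 ± 0.48% in Neg EpiLCs and 4.93 ± 0.17% in 3×KD EpiLCs without overlap, and the minor Ctnnb1-205 took 0.56 ± 0.04% and 1.27 ± 0.19%, also without overlap. For *Notum*, Notum-202 took 84.4, 52.5 and 37.9% in the Neg ESC libraries and 39.9, 33.7 and 43.0% in 3×KD ESCs, while the short Notum-204 took 0, 0 and 16.7% and 26.6, 30.5 and 27.5%. No test was made on these shares, and how often other transcripts of the 10 genes did not overlap was not counted. In estimated counts Tcf7-203 took 0.49 ± 0.13% in Neg EpiLCs and 1.41 ± 0.05% in 3×KD EpiLCs. The estimates for *Notum* enter its transcript-length offset. Of the 10 genes, 4 lie on chromosome 11 (*Tcf7*, *Wnt3*, *Axin2* and *Notum*), whose 1189 genes had median log2 fold changes of 0.00 in ESCs and 0.02 in EpiLCs between the lines. Chromosome 16, which holds none of the 10, had the largest medians between the lines, 0.298 in ESCs and 0.3 in EpiLCs over 454 genes. The reason for this shift was not tested, and the genes of the pathway lists were not set beside the medians of their own chromosomes. Of the genes that overlap one of the 10 on the opposite strand, those with the most counts per library were *Notumos* with 0 to 21 beside 18 to 412 for *Notum*, *Nme5* 0 to 4 beside 3 to 126 for *Wnt8a*, *Ulk4* 36 to 76 beside 11039 to 20131 for *Ctnnb1*, and *A630014C17Rik* 2 to 35 beside 811 to 1823 for *Tcf7*. The library protocol is directional, and the part of these genes in the values was not tested.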

How the data were processed

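RNA was sequenced from 12 libraries, grouped by sample title into 4 groups of 3. The labels' cell-type field instead gives ESCs for every Neg library and EpiLCs for every 3×KD library, and their molecule field gives polyA RNA where the methods describe rRNA depletion and directional single-end libraries. The titles and methods were followed.

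The authors trimmed reads with Trim Galore 0.6.7, aligned them with STAR 2.7.9a to GRCm39 with Ensembl annotation, and quantified transcripts with Salmon 1.10.1. The deposited values are Salmon's estimated counts and TPM for 149132 transcripts. Estimated counts were summed here over each gene's transcripts (57180 genes) and rounded. TPM, which the authors' Salmon run scaled to transcript length and library, was summed for levels between genes and shared out between transcripts. Salmon divides reads among similar transcripts, so transcript shares are estimates.

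Genes with at least 10 counts over all libraries (25446) were fitted with edgeR 4.0.16 (R 4.3.3) in one quasi-likelihood model with TMM factors and 4 group terms. Calls needed a Benjamini-Hochberg adjusted p under 0.01 and a log2 fold change above 0.58 in size, with no fold limit for the difference of effects. Standard errors are the log2 fold change over the square root of F. The fit was tested on simulated data. The study used tximport and DESeq2, and DESeq2 1.42.0 and transcript-length offsets were tried as alternatives, with other normalization factors, filters, a robust fit, fewer groups, other limits, a replicate block and each library left out. Intervals on ratios of counts are exact 95% intervals.

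Likeness between genes is Pearson's r of log2(CPM + 1) over the 12 libraries, among genes averaging 1 CPM or more. Named are the 10 genes, up to 3 of the largest called changes per pathway list and comparison at that mean level, the naive genes that TCF7L1 represses, the 3 most alike genes per member, the knockdown targets and the markers, with exceptions said in the text. The genes, lists and markers were chosen with earlier results of these data known. Annotation was GENCODE vM39 (99.0% of genes matched).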

Additional observations from a re-analysis of the deposited data

Results flagged for a closer look

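For 3 of the 10 genes the effect of 3×KD differed between the states by the test of the difference itself (edgeR quasi-likelihood, adjusted p under 0.01). The effect in EpiLCs minus that in ESCs was 1.15 for *Axin2*, 3.59 for *Sp5* and −0.27 for *Tcf7l1*, on the log2 scale. *Axin2* was lower in 3×KD than in Neg in all 3 ESC libraries and higher in all 3 EpiLC libraries. The EpiLC difference was only 0.21 and was not called, so a rise in that state is not shown. *Sp5* had at most 3 counts in any EpiLC library, so the size of its difference depends on how the fit treats counts near 0. *Tcf7l1* was lower in 3×KD in both states, by 0.28 in ESCs and 0.55 in EpiLCs. No group of 3 libraries was tested for a library far from the others.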

How the results depend on the processing

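Over the tools, scalings, filters, library subsets and the replicate block, the direction of a member's change turned in 2 cases, both small and not called: *Ctnnb1* in 3×KD against Neg ESCs was 0.026 with transcript-length offsets, and *Wnt3* from 3×KD ESCs to 3×KD EpiLCs was −0.0457 without the second 3×KD EpiLC library, within a range up to 0.839 when other libraries were left out. With transcript-length offsets 3 of the 10 genes were called in ESCs, against 5, and 7 pathway genes, against 24, for the difference of effects. With an adjusted p under 0.01 and no fold limit, 40 pathway genes were called in 3×KD against Neg ESCs, 4 members and 42 pathway genes in EpiLCs, and 45 pathway genes from 3×KD ESCs to 3×KD EpiLCs. Under 0.05 with no fold limit these were 8 members and 53 pathway genes in ESCs, 7 and 46 in EpiLCs, 64 and 54 pathway genes from ESCs to EpiLCs in Neg and 3×KD, and 5 members for the difference of effects. Leaving out each library gave 1 to 2 members called in 3×KD against Neg EpiLCs, the second being *Cdx1* without the second 3×KD EpiLC library. Of the 27 genes named as most alike, 2 were named again by Spearman's correlation and 15 with a pseudocount of 0.1 CPM, and 19 of 77 transcript shares stayed within 1 SD when taken from estimated counts.

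The labels repeat replicate numbers 1 to 3 in each group. Over 18 same-numbered pairs the correlation of deviations lay between −0.135 and 0.101 (median −0.00783), and 3 of 12 libraries correlated best with their own number, so the numbers were not taken to pair the libraries. With a replicate block, 5 members were called in 3×KD against Neg ESCs, 1 in EpiLCs, 8 and 6 from ESCs to EpiLCs in Neg and 3×KD, and 3 for the difference of effects, with 24, 21, 37, 28 and 20 pathway genes; no member's call changed. *Wnt3*, and *Sp5* and *Cdx1* in EpiLCs, rest on at most 48 counts over a group of 3 libraries.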
